A study of Mus musculus with 6 samples.

Results

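The 10 genes described here encode BCL2 family proteins, which set whether a lymphocyte survives or enters apoptosis. They were chosen by name and were all found among the 31053 features of the series: Bcl2, Bcl2l1, Mcl1, Bcl2a1b and Bcl2a1d, whose proteins keep cells alive, Bcl2l11, Bbc3 and Pmaip1, whose proteins promote death, and the effectors Bax and Bak1. Their RNA was followed through CD4 T cells of a naive and a memory-like kind, regulatory and CD8 T cells, follicular and germinal centre B cells and dendritic cells (DC) of the mouse pancreatic lymph node, and between 2 genotypes. The study asked about sex bias in autoimmune disease and what T cells contribute to it. Single cells of 6 mice, 1 library each, were counted with droplet sequencing from 10x Genomics, which tags every captured RNA molecule with a unique molecular identifier (UMI) near its 3' end. In 3 mice a floxed gene was combined with the CD4-Cre transgene (Cre-positive 1 to 3), and 3 mice carried the floxed gene without it (Cre-negative 1 to 3). Cre driven by Cd4 sequences acts in developing thymocytes that express Cd4, so that CD8 as well as CD4 T cells descend from cells that held the enzyme, while B cells and most dendritic cells do not. All 6 mice thus carried the floxed gene, the controls included, and no mouse with an unmodified gene was analysed here. Strain, age and sex are not given in the labels used here.

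In the intrinsic pathway of apoptosis, BAX and BAK pierce the outer membrane of mitochondria, which lets cytochrome c reach APAF1 and the caspases. BCL2, BCL-XL (from Bcl2l1), MCL1 and the A1 proteins (from the Bcl2a1 genes) hold BAX and BAK in check, and the BH3-only proteins BIM (from Bcl2l11), PUMA (from Bbc3) and NOXA (from Pmaip1) bind these guardians and so release the effectors. Lymphocytes use the guardians unevenly: naive T cells depend on BCL2 that interleukin 7 maintains, activated cells induce A1 and BCL-XL through NF-kB, germinal centre B cells switch Bcl2 off and live on MCL1, and BIM is the main brake on lymphocyte numbers.

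Cells were assigned to a class by UMIs of marker genes that did not include any of the 10 genes. Of 59680 barcodes, 51777 cells were kept and 23926 fell in a class. The sums per mouse rested on 901 to 1369 naive CD4 cells, 112 to 181 memory-like CD4 cells, 244 to 330 regulatory T cells, 829 to 1381 and 128 to 204 cells of the 2 CD8 gates described below, 57 to 110 naive CD8 cells, 835 to 1586 follicular B cells, 27 to 72 germinal centre B cells and 25 to 93 migratory DC. Plasmacytoid DC reached 20 cells in 5 mice and conventional DC in 3 (Cre-positive 2 and 3, Cre-negative 2), and sums under 20 cells were left out. Libraries held 47149014 to 61321105 UMIs, and any pair of them shared 16 to 39 barcodes, at most 0.393% of the smaller library. Levels are in CPM, the UMIs of a gene scaled to 1000000 UMIs of its class in that mouse. Because 3' counts are not scaled to transcript length, levels are compared between classes and not between genes. Fold changes come from the quasi-likelihood test of edgeR over all genes that passed its low-count filter, on UMI sums per mouse with the mouse as a block, and a gene passed at a Benjamini-Hochberg adjusted p under 0.05. They are scaled by TMM factors, so that they can differ from the ratio of 2 CPM values.

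Most T and B cell classes carried the markers of their names, while for dendritic cells no check markers outside the gates are given here. Lef1, a transcription factor of naive T cells that no gate used, averaged 375 CPM in memory-like CD4 cells and 213 CPM in regulatory T cells, against 818 CPM in naive CD4 cells, and Cd44, a marker of antigen experience, 92.5 CPM in memory-like and 24.1 CPM in naive CD4 cells. Among other naive markers, Satb1 averaged 454 CPM in memory-like, 295 CPM in regulatory T and 717 CPM in naive CD4 cells. Tcf7 averaged 203 CPM in regulatory T cells, but 423 CPM in memory-like against 432 CPM in naive CD4 cells. Il2ra, Ctla4 and Tnfrsf18 averaged 229, 678 and 263 CPM in regulatory T and 2.54, 22.5 and 74.3 CPM in naive CD4 cells. Memory-like CD4 cells had 16.7, 194 and 84.9 CPM of these genes, and 54.1 CPM of Mki67 against 2.49 CPM in naive CD4 cells. Whether the memory-like CD4 gate held cycling cells, or regulatory T cells without a Foxp3 or Ikzf2 UMI, was not tested. Fas and Mki67 averaged 91.1 and 355 CPM in germinal centre B cells, against 7.67 and 4.8 CPM in follicular B cells, although Jchain, a gene of antibody-secreting cells, was also found there, as given below. The memory gate of CD8 cells went against its name: its 6248 cells had 688 CPM of Nkg7, Lef1 was at 624 CPM against 712 CPM in naive CD8 cells, and Cd44 at 18.9 against 11.6 CPM. It is called the Nkg7 gate below. A second gate without Nkg7, added after the data were seen, took 966 of the 6248 cells, with 400 CPM of Lef1 and 49.4 CPM of Cd44. It is called memory-like CD8 and is a part of the Nkg7 gate. Memory-like CD4 sums also held myeloid RNA: Lyz2, a macrophage gene, ranged from 2.12 to 1397 CPM over the 6 mice, against 8.40 to 26.1 CPM in naive CD4 cells.

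Bcl2 was highest in CD8 and regulatory T cells and lowest in dendritic cells. In the Nkg7 gate it lay between 289 and 363 CPM with a median of 345, in regulatory T cells between 290 and 381 with a median of 316, in naive CD8 cells between 210 and 315 with a median of 269, and in naive CD4 cells between 180 and 268 with a median of 235. Follicular B cells were even across mice, at 145 to 152 CPM, and memory-like CD4 cells spread around them, at 108 to 178 CPM with a median of 146. Germinal centre B cells had 23.2 to 95.8 CPM with a median of 47.1, and the 3 kinds of dendritic cell averaged 7.50 to 8.96 CPM from 4 to 11 UMIs in all. Down this order, 3 of 9 neighbouring pairs of classes had ranges that did not overlap: naive CD4 above follicular B cells, memory-like CD4 above germinal centre B cells, and germinal centre B cells above plasmacytoid DC. In cells thinned to 2000 UMIs, a Bcl2 UMI was found in 43.1% of regulatory T cells and 20.3% of memory-like CD4 cells. The share was 29.9% in naive CD4 cells and 1.20% in migratory DC. That of migratory DC comes from 5 mice, in which 82 cells under 2000 UMIs were left out of the thinning. Without thinning the shares were 63.4%, 44.2%, 52.7% and 2.37%, at median depths per mouse of 3831.5 to 5124 UMIs in regulatory T, 4542.5 to 6311 in memory-like CD4, 4566 to 5926.5 in naive CD4 cells and 1926 to 3594 in migratory DC.

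Bcl2l1 was a gene of low counts with its highest levels in migratory DC, at 9.96 to 39.1 CPM, and in regulatory T cells, at 14.0 to 28.5 CPM. Naive CD4 cells had 4.88 to 7.92 CPM, all below every regulatory T sum, and follicular B cells 4.01 to 5.34 CPM. No neighbouring pair in its order was free of overlap.

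Mcl1 was found in every class and every mouse. Conventional DC had 653, 790 and 1224 CPM, migratory DC 556 to 873 CPM with a median of 700, and regulatory T cells 516 to 677 CPM with a median of 631. Naive CD4 cells followed at 440 to 505 CPM, below every regulatory T sum, and plasmacytoid DC came last at 204 to 314 CPM. Germinal centre B cells, at 255 to 497 CPM, overlapped follicular B cells, at 374 to 422 CPM.

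The A1 genes Bcl2a1b and Bcl2a1d spanned a wide range of levels. Bcl2a1b lay between 892 and 1834 CPM in migratory DC with a median of 1426, and at 531, 538 and 693 CPM in conventional DC. Regulatory T cells had 181 to 241 CPM and memory-like CD4 cells 173 to 255 CPM, against 29.4 to 40.7 CPM in naive CD4 cells and 11.1 to 57.5 CPM in naive CD8 cells. Its range was 58.0 to 177 CPM in germinal centre B cells and 51.9 to 89.1 CPM in follicular B cells. In plasmacytoid DC the 5 mice together gave 11 UMIs, 10 of them from Cre-negative 2, which stood at 32.6 CPM, with the other 4 mice between 0 and 3.53 CPM. Bcl2a1d was highest in the same classes, at 585 to 1120 CPM in migratory DC and 414.6 to 553 CPM in conventional DC, and had its lowest means in naive T cells, at 4.13 to 7.22 CPM in naive CD4 and 0 to 6.22 CPM in naive CD8 cells. That order rests on 1 mouse: plasmacytoid DC averaged 8.86 CPM through Cre-negative 2 at 39.1 CPM and 1.31 CPM without it, below the means of 5.72 CPM in naive CD4 and 2.22 CPM in naive CD8 cells. Both genes had the same pair of gaps at the top of their order, migratory above conventional DC and conventional DC above the next class. A Bcl2a1b UMI was found in 78.2% of migratory DC and 5.27% of naive CD4 cells after thinning, against 1.67% of plasmacytoid DC (83.5%, 12.6% and 2.09% without thinning), the last at the highest median depth of these classes, 7094.5 to 10413 UMIs. These shares come from 5 mice in migratory DC and from 4 in plasmacytoid DC.

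Among the BH3-only genes, Bcl2l11 was the most even. Its means ran from 69.2 CPM in follicular B cells and 67.2 CPM in migratory DC to 25.7 CPM in plasmacytoid DC and 14.5 CPM in conventional DC, and all neighbours overlapped. Bbc3 lay at 27.2 to 69.2 CPM in naive CD4 cells, 18.2 to 48.7 CPM with a median of 30.1 in memory-like CD4 cells and 7.99 to 57.0 CPM with a median of 33.2 in naive CD8 cells. Regulatory T cells had 22.8 to 38.6 CPM, above every germinal centre B sum at 11.2 to 22.8 CPM, and these lay above every follicular B sum at 4.16 to 8.76 CPM. The ranges of memory-like CD4 and naive CD8 cells overlapped that of germinal centre B cells. Pmaip1 was highest in 2 of the 3 kinds of dendritic cell. Conventional DC had 469, 510 and 560 CPM and migratory DC 90.2 to 394 CPM, above regulatory T cells at 53.0 to 72.4 CPM, while plasmacytoid DC had 0 to 36.7 CPM. Naive CD4 cells were lowest at 4.22 to 7.44 CPM.

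Of the effectors, Bax varied least between classes by the ratio of the highest to the lowest class mean, which was 1.62, with Mcl1 next of the 10 genes at 3.30. It averaged between 111 CPM in naive CD8 cells and 180 CPM in conventional DC, and Bak1 between 10.9 CPM in naive CD8 cells and 47.7 CPM in migratory DC. Neither gene had a neighbouring pair of classes without overlap.

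**Figure D1:**
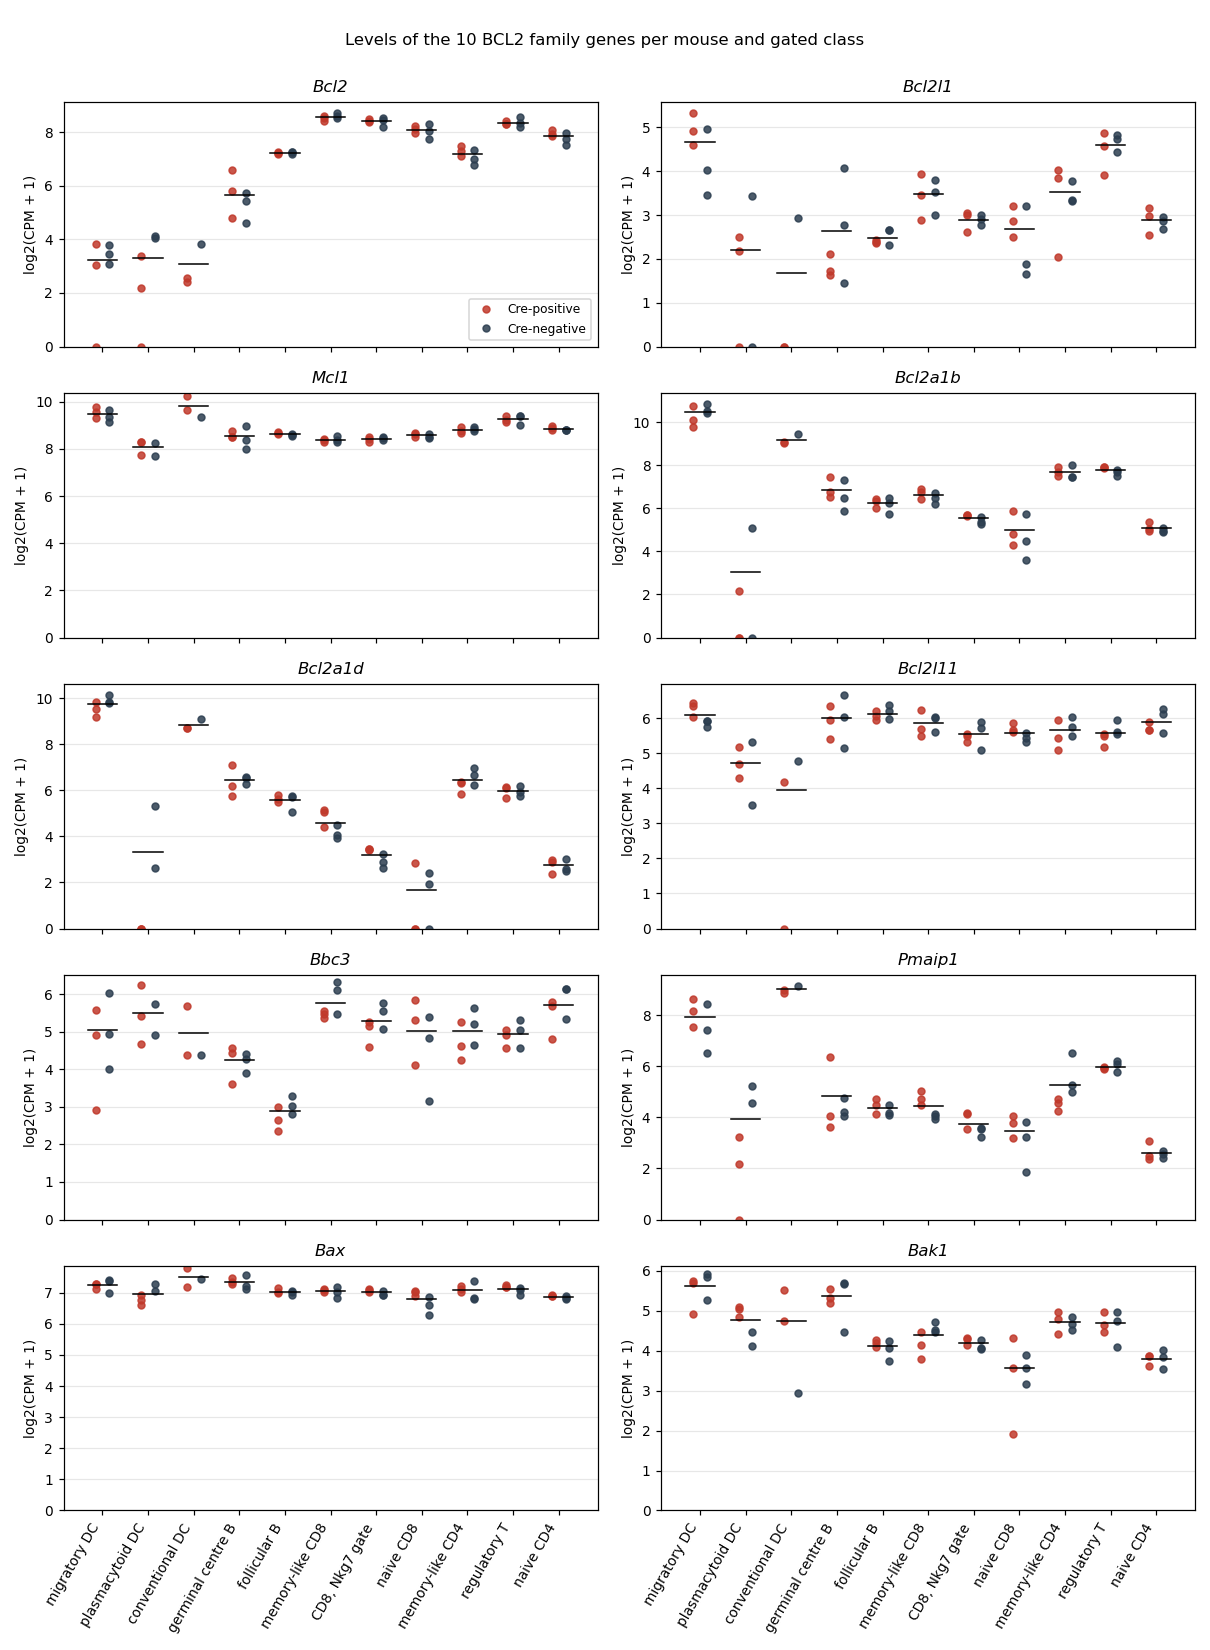
Level of each gene, log2(CPM + 1), in every mouse (points, Cre-positive left of Cre-negative) and class, with the black line at the class mean CPM. Bcl2 is lowest in the 3 kinds of dendritic cell (means of 7.50 to 8.96 CPM). Bcl2a1b and Bcl2a1d are highest in migratory and conventional DC but low in plasmacytoid DC (means of 7.22 and 8.86 CPM), and Bax has class means of 111 to 180 CPM.

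Across the 10 classes, the class means of some other genes ran closely along those of 4 members, compared over 7487 genes on the log2(CPM + 1) scale as a description only. The genes most like Bcl2 were Cd2 (Pearson r 0.981), Jak1 (0.979) and Sp4 (0.978). Those most like Mcl1 were Dusp1 (0.932), Ddhd1 (0.911) and Ccrl2 (0.908). Gtpbp4 (0.945), Sbno1 (0.936) and Cul2 (0.935) ran along Bcl2l11, and Fnbp1 (0.962), Gbp3 (0.943) and Luzp1 (0.942) along Bcl2a1b. The points of each correlation share libraries and class depth.

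Positions of 9 of the 10 genes, all annotated as protein coding, are given on the mouse genome (GRCm38, GENCODE M21). Bcl2 spans chr1:106538178-106714274 on the minus strand, Bcl2l1 chr2:152780668-152831728 (minus), Bcl2l11 chr2:128126038-128162547 (plus), Mcl1 chr3:95658788-95663176 (plus), Bbc3 chr7:16308393-16318205 (plus) and Bax chr7:45461697-45466898 (minus). Bcl2a1d spans chr9:88723285-88731914 (minus), Bcl2a1b chr9:89199209-89207827 (plus) and Bak1 chr17:27019810-27029009 (minus). Bcl2a1b, Bax and Bcl2 overlap annotated genes on their own strand (Gm29094, Gm45808, and both Mir3473f and Gm37053), so their UMIs are uncertain to that extent. Bcl2, Bcl2a1d and Bak1 overlap genes on the opposite strand.

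Bcl2a1b and Bcl2a1d are near copies of each other and of Bcl2a1a, at chr9:88956900-88962419. Of all 90-base windows of the transcripts, 36.1% for Bcl2a1b and 61.6% for Bcl2a1d were identical to a stretch of another copy, and over the last 300 bases, where 3' reads fall, 50.2% and 89.6%. How the counting shared reads among the copies is not given in the sources used here, so the split between them is uncertain. Bcl2a1a had 560 CPM in migratory DC and 360 CPM in conventional DC, but 9.98 CPM in memory-like CD4 cells and 0.331 CPM in naive CD4 cells. The copies also share their promoters, shown here because both A1 genes passed in the same direction in 4 comparisons between classes below (memory-like CD4, regulatory T, follicular B and migratory DC) in which either class alone brought them past the low-count filter. Each window covers 250 bases before to 50 bases after the start of the gene in RefSeq (GRCm38.p6), read along the gene. The single match to TGANTCA, a loose form of the AP-1 motif that allows any middle base, is in capitals. It was searched on both strands. Each match reads TGAATCA, with A in the middle, and whether AP-1 proteins bind it was not tested. The windows are chr9:88731801-88732100 (minus strand) for Bcl2a1d, chr9:88956670-88956969 (plus) for Bcl2a1a and chr9:89199023-89199322 (plus) for Bcl2a1b.
Bcl2a1d: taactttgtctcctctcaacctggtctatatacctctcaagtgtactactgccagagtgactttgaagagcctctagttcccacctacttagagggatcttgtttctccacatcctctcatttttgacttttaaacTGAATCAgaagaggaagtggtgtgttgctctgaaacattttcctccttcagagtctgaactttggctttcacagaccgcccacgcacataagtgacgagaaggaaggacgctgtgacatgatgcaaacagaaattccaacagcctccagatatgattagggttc
Bcl2a1a: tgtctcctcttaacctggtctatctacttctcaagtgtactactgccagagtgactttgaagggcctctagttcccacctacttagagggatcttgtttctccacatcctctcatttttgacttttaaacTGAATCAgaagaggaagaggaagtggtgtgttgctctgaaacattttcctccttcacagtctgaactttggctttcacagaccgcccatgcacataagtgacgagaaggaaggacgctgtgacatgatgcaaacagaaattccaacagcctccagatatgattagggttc
Bcl2a1b: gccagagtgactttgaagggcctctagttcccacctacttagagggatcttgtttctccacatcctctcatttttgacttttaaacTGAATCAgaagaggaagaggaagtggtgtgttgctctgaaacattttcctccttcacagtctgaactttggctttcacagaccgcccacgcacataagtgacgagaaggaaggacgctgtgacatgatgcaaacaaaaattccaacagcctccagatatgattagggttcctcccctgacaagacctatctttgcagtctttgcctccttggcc
The longest stretch identical between 2 windows was 174 bases for Bcl2a1a and Bcl2a1b and 84 bases for Bcl2a1d with either. The match ends 107 bases before the annotated start of Bcl2a1d, 113 bases before that of Bcl2a1a and 157 bases before that of Bcl2a1b. It was found in 2565 of 32851 promoter windows of the same length (7.81%), and in these 3 windows of the 16 that the members and Bcl2a1 copies had. RefSeq windows were found for 9 of the 10 members.

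Memory-like CD4 cells were set against naive CD4 cells of the same mouse. They had less Bcl2 and more of both A1 genes and of Pmaip1. Over all 8931 genes tested, 23.8% passed (13.1% higher, 10.7% lower), and of the 10 members 8 passed, 4 higher and 4 lower. The median log2 fold change was 0.31 over the members and -0.00357 over all genes. Bcl2 averaged 144 ± 24.9 CPM in memory-like and 231 ± 31.0 CPM in naive CD4 cells (SD, n = 6 each) and was lower in memory-like cells of all 6 mice, with a log2 fold change of -0.81 ± 0.0598 (SE; edgeR adjusted p 5.08e-16). Every memory-like sum lay below every naive sum. Bcl2a1b rose by a log2 fold change of 2.52 ± 0.0752 (SE; edgeR adjusted p 1.03e-31) and Bcl2a1d by 3.75 ± 0.140 (edgeR adjusted p 2.66e-26), higher in 6 of 6 mice without overlap. Pmaip1 averaged 37.3 ± 26.5 CPM in memory-like and 5.16 ± 1.19 CPM in naive cells, a change of 2.62 ± 0.282 (edgeR adjusted p 6.28e-06), and the wide spread came from Cre-negative 3 at 89.7 CPM with the other mice at 18.2 to 37.1 CPM. Bcl2l1 did not pass, at 10.5 against 6.36 CPM (0.55 ± 0.268, edgeR adjusted p 0.145), nor did Bax, at 134 against 116 CPM (0.07, edgeR adjusted p 0.522). Bak1 rose by 0.83, to 25.2 CPM against 12.9 CPM in naive cells. Among the BH3-only genes, Bbc3 fell by 0.85 on the log2 scale (31.3 against 51.7 CPM, lower in 6 of 6 mice) and Bcl2l11 fell by 0.37 (49.7 against 58.3 CPM, lower in 5 of 6 mice).

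Beside these A1 and Pmaip1 values stand the myeloid genes of the same sums: Lyz2 averaged 337 CPM and the class II gene H2-Aa 313 CPM in memory-like cells, while H2-Aa averaged 27.5 CPM in naive cells. When every T cell with a UMI of Lyz2, C1qa, C1qb or H2-Aa was left out, an alternative added after the data were seen, the log2 fold changes were 2.25 for Bcl2a1b, 3.24 for Bcl2a1d, 2.00 for Pmaip1 and -0.76 for Bcl2, and all 4 passed. Scaling by library totals in place of TMM moved the median of all genes by 0.13 (log2) and the share of higher genes among those called from 55.0% with TMM to 80.6%. With totals Mcl1, which fell by 0.16 with TMM, changed by -0.03 and Bcl2l11 by -0.24, neither of which passed, and Bax passed as higher by 0.20. Without Cre-positive 2 Bcl2l11 no longer passed either. Adjusted p over the 16 alternatives ran from 1.16e-05 to 0.885 for Mcl1 and from 7.56e-05 to 0.135 for Bcl2l11.

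Regulatory T cells, which express Foxp3 and restrain other lymphocytes, differed from naive CD4 cells in 9 of the 10 genes, where 45.2% of all 9205 genes tested passed. In 7 members the level was higher (23.6% of all genes) and in 2 lower (21.6%), with a median of 0.51 over the members and 0.00288 over all genes. Bcl2, which was lower in memory-like CD4 cells, was higher here: it averaged 326 ± 30.9 CPM in regulatory and 231 ± 31.0 CPM in naive CD4 cells (SD, n = 6 each), higher in 6 of 6 mice and without overlap, with a log2 fold change of 0.31 ± 0.0501 (SE; edgeR adjusted p 2.04e-06). Bcl2l1 rose by 1.63 ± 0.164 (edgeR adjusted p 6.14e-12), to 23.2 against 6.36 CPM, and Mcl1 by 0.23 ± 0.0469 (edgeR adjusted p 0.000261), to 616 against 460 CPM. The A1 genes rose as well, Bcl2a1b by 2.58 and Bcl2a1d by 3.23, and Pmaip1 averaged 62.2 ± 6.88 CPM in regulatory and 5.16 ± 1.19 CPM in naive cells, a change of 3.42 ± 0.125 (edgeR adjusted p 1.17e-29). Regulatory T cells thus held more RNA of all 5 survival genes together with more of the NOXA gene. Bcl2l11 fell by 0.51 (46.7 against 58.3 CPM, lower in 5 of 6 mice) and Bbc3 fell by 0.98 (29.7 against 51.7 CPM, lower in 6 of 6 mice). Bak1 rose by 0.72. Bax, at 139 ± 10.6 CPM in regulatory and 116 ± 3.49 CPM in naive cells, was higher without overlap on the CPM scale but changed by 0.07 (edgeR adjusted p 0.329) after TMM scaling, which moved the median of all genes by 0.20 against library totals; with totals 20 of 36 tested death pathway genes were higher in place of 12, and Bax passed at 0.26. The share of higher genes among all called was 52.2% with TMM and 80.6% with totals. The 9 calls held under all 16 alternatives, with Bcl2l1 at 0.94 without cells that held an immediate early UMI.

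Naive CD8 cells differed from naive CD4 cells in 10.8% of 8577 genes and in 4 of the 10 members, 2 higher (5.39% of all genes) and 2 lower (5.39%). Mcl1 was lower in naive CD8 cells of 6 of 6 mice, at 379 ± 21.6 CPM against 460 ± 25.4 CPM in naive CD4 cells (log2 fold change -0.26 ± 0.0621 SE, edgeR adjusted p 0.00128). Bbc3 fell by 0.70 (31.5 against 51.7 CPM, lower in 5 of 6 mice), and lost its call in 4 of 16 alternatives (adjusted p up to 0.492). Bcl2 was higher by 0.22 (268 against 231 CPM, higher in 5 of 6 mice) and Pmaip1 by 1.08 (10.1 against 5.16 CPM, higher in 5 of 6 mice, from 27 UMIs in the CD8 sums). The last 2 calls were less steady: Bcl2 lost its call in 12 of 16 alternatives, also on leaving out any of 5 mice, and Pmaip1 on leaving out Cre-positive 2 or 3 or Cre-negative 1 or 2, with adjusted p up to 0.424 for Bcl2 and up to 0.359 for Pmaip1. The other 6 members did not pass, with edgeR adjusted p from 0.243 to 0.900 and log2 fold changes from -1.08 (Bcl2a1d, 2.22 against 5.72 CPM) to 0.11 (Bcl2a1b, 31.4 against 32.5 CPM).

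Among CD8 cells, the Nkg7 gate and naive cells differed in 2.71% of 9106 genes (2.08% higher, 0.637% lower) and in 2 of the 10 members, Bcl2 and Bcl2a1d. Bcl2 was higher in the Nkg7 gate of 6 of 6 mice, at 338 ± 26.8 against 268 ± 37.6 CPM in naive CD8 cells (log2 fold change 0.42 ± 0.0668 SE, edgeR adjusted p 1.11e-06), although the ranges of 289 to 363 and 210 to 315 CPM overlapped. Bcl2a1d differed by 1.64 from few UMIs (8.26 against 2.22 CPM, 7 UMIs in naive CD8 cells), passed the low-count filter through the Nkg7 gate only, and lost its call without Cre-positive 1 or 3, or Cre-negative 1 or 3, with adjusted p from 0.0116 to 0.352 over 14 alternatives. The other 8 members did not pass, with edgeR adjusted p from 0.147 to 0.999 and log2 fold changes from -0.08 (Mcl1, 343 against 379 CPM) to 0.75 (Bak1, 17.2 against 10.9 CPM). The share of higher genes among all called was 76.5% with TMM and 46% with library totals. The memory-like CD8 gate is a part of the Nkg7 gate and was set against the same naive CD8 sums, so the results are not independent. In it 9.87% of 6473 genes passed (5.89% higher, 3.99% lower) and 6 of 9 members tested. Bcl2 was higher there, at 377 ± 24.0 CPM against 268 ± 37.6 CPM (log2 fold change 0.54 ± 0.0784 SE, edgeR adjusted p 1.51e-07), without overlap. The other 5 calls passed the low-count filter through the memory-like cells only, which partly set their direction, so they are a description and the count of calls is not read as a result. Bcl2a1d had 22.9 against 2.22 CPM (7 UMIs in naive CD8 cells), Bcl2a1b 97.0 against 31.4 CPM and Pmaip1 20.7 against 10.1 CPM. Bbc3 had 53.6 against 31.5 CPM, where memory-like CD4 cells had less of it than naive CD4 cells. Mcl1 (334 against 379 CPM), Bcl2l11 (57.4 against 47.1 CPM) and Bax (132 against 111 CPM) did not pass, with edgeR adjusted p from 0.123 to 0.335. Bak1 had 19.8 against 10.9 CPM and lost its call in 10 of 13 alternatives, leaving out any of 5 mice included. Calls were also lost for Bcl2a1b without Cre-positive 1 or Cre-negative 3, for Bbc3 without Cre-negative 2 and for Pmaip1 without Cre-positive 1 or 3 or Cre-negative 3. The filter left out Bcl2l1 here, so these 9 genes are not all members. Beside these values, Lyz2 averaged 122 CPM (10.99 to 637 CPM) in memory-like CD8 cells, against 7.61 CPM (0 to 13.7 CPM) in naive CD8 cells, and H2-Aa 94.8 against 25.7 CPM. Without T cells with a myeloid or class II UMI, Bcl2 at 0.56, Bcl2a1b at 1.32 and Bbc3 at 0.89 passed, Bak1 at 0.71 did not, and the filter left out Bcl2a1d and Pmaip1.

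Germinal centre B cells, which divide and mutate their antibody genes, had far less Bcl2 than follicular B cells. It averaged 49.0 ± 26.2 CPM in germinal centre and 148 ± 3.02 CPM in follicular B cells (SD, n = 6 each), lower in 6 of 6 mice without overlap, with a log2 fold change of -1.71 ± 0.212 (SE; edgeR adjusted p 3.53e-05). Jchain, the gene of antibody-secreting cells, averaged 1300 CPM (272 to 3554 CPM) in these germinal centre sums and 1.70 CPM (0.382 to 5.03 CPM) in follicular B cells, and its part in the differences below was not tested. Over all 9052 genes 46.5% passed, so that 5 of 10 members, 4 higher (23.7% of all genes) and 1 lower (22.8%), is close to the rate of all genes. Bak1 rose by 1.25 ± 0.199 (edgeR adjusted p 4.93e-06), to 40.1 against 16.2 CPM, and Bbc3 by 1.39 ± 0.287 (edgeR adjusted p 0.000179), to 17.9 against 6.40 CPM, each higher in 6 of 6 mice without overlap. Bcl2a1d rose by 0.79 (87.0 against 47.0 CPM) and Bax by 0.25 (161 against 130 CPM). The last 2 were less steady: Bcl2a1d changed by 0.14 at a mitochondrial limit of 5% and lost its call there, with adjusted p from 1.90e-06 to 0.665 over 15 alternatives, and Bax lost its call in 9 of 15, without Cre-positive 1 or 2 or Cre-negative 1 or 3 among them. Bbc3 lost its call without cells that held an immediate early UMI. Mcl1, the survival gene that germinal centre cells are known to need, had 373 ± 83.2 against 397 ± 16.7 CPM, a change of -0.17 ± 0.0952 (edgeR adjusted p 0.158). Bcl2l11, at 63.5 against 69.2 CPM, and Bcl2a1b, at 113 against 74.3 CPM, did not pass either. Nor did Bcl2l1, at 5.17 against 4.56 CPM (-0.06, edgeR adjusted p 0.937), and Pmaip1, at 27.9 ± 26.5 against 19.6 ± 3.55 CPM (0.34, edgeR adjusted p 0.439).

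Follicular B cells and naive CD4 cells differed in 71.8% of 10203 genes, and in all 10 members, 6 higher (36.3% of all genes) and 4 lower (35.6%). Size and direction varied among the members. Bbc3 fell by 2.99 ± 0.0954 on the log2 scale (SE; edgeR adjusted p 6.37e-35), to 6.40 ± 1.61 CPM in follicular B against 51.7 ± 16.6 CPM in naive CD4 cells, without overlap in 6 mice. Bcl2a1d rose by 3.02, Pmaip1 by 1.94 and Bcl2a1b by 1.17. Bcl2 fell by 0.65, Bcl2l1 by 0.51 and Mcl1 by 0.23, each lower in 6 of 6 mice, while Bcl2l11 rose by 0.24, Bak1 by 0.31 and Bax by 0.14. The change of Bcl2l11 shrank to 0.01 at a mitochondrial limit of 5% and lost its call there and in 2 other alternatives (adjusted p from 8.05e-06 to 0.904 over 16).

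Dendritic cells were compared in the 3 mice with 20 cells or more of each class. Migratory DC carry antigen from tissue into the node, and 37.5% of 2611 genes separated them from the conventional DC gate (20.8% higher, 16.7% lower). Of the 7 members tested, both A1 genes and Bcl2l11 passed as higher, and Bcl2l11 passed the low-count filter through migratory DC only. Bcl2a1b had 1746, 892 and 1467 CPM in migratory DC of Cre-positive 2, Cre-positive 3 and Cre-negative 2, against 531, 538 and 693 CPM in their conventional DC, a log2 fold change of 1.26 ± 0.262 (SE; edgeR adjusted p 0.000954) without overlap. Bcl2a1d was higher by 0.86. Bcl2l11 had 85.9, 80.4 and 59.2 CPM in migratory against 17.0, 0 and 26.7 CPM in conventional DC, from 8 UMIs in conventional DC, and is given with no p since the filter partly set its direction. Pmaip1 had 394, 183 and 342 CPM in migratory against 510, 469 and 560 CPM in conventional DC, lower in 3 of 3 mice (-0.69, edgeR adjusted p 0.0731), and passed as lower by 0.79 with library totals. Mcl1 (679 against 889 CPM), Bbc3 (46.8 against 30.2 CPM) and Bax (153 against 180 CPM) did not pass. Bcl2a1d lost its call without Cre-positive 2, as did Bcl2l11, with adjusted p up to 0.105 for Bcl2a1d over the alternatives. Immediate early genes, which respond to antigen receptor signals and to handling of tissue, stood apart in conventional DC. Nr4a1 averaged 11.9 CPM in migratory DC (6 mice) and 12.04 CPM in plasmacytoid DC (5 mice), against 471 CPM in conventional DC (3 mice), Egr1 23.0 and 12.4 against 317 CPM, and Fosb 152 and 151 against 582 CPM. Their part in the differences of Mcl1, Pmaip1 and the A1 genes between these classes was not tested. The filter left out Bcl2, Bcl2l1 and Bak1. Median UMIs per cell were 1926 to 3594 in migratory and 4225 to 7443 in conventional DC.

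Plasmacytoid DC, the main source of type I interferon, had the lowest Mcl1, A1 and Pmaip1 of the dendritic cells, where 34.9% of 3313 genes passed (17.3% higher, 17.7% lower). The low-count filter kept 5 members, and Bcl2a1b, Bcl2a1d and Pmaip1 could pass it only through the conventional DC, where they were high, so the direction over these 5 is partly set by the filter and their count is not read as a result. Those 3 genes are described below with no p. Mcl1 had 310, 314 and 303 CPM in plasmacytoid DC of Cre-positive 2, Cre-positive 3 and Cre-negative 2, against 1224, 790 and 653 CPM in conventional DC, a log2 fold change of -1.92 ± 0.213 (SE; edgeR adjusted p 8.34e-07). Pmaip1 had 0, 3.53 and 22.8 CPM against 510, 469 and 560 CPM, and Bcl2a1b 0, 3.53 and 32.6 CPM against 531, 538 and 693 CPM. Mcl1 did not overlap between the classes. Bcl2a1d had 0, 0 and 39.1 CPM against 416, 415 and 553 CPM. The immediate early genes, which also stood higher in conventional DC, are given with the migratory DC above. Bax fell by 0.99 with TMM but by 0.48 with library totals, which moved the median of all genes by 0.49 and the share of higher genes among those called from 49.4% with TMM to 75.6%; Bax then did not pass, nor without Cre-positive 3 (adjusted p from 0.00215 to 0.161 over 10 alternatives). The filter left out Bcl2, Bcl2l1, Bcl2l11, Bbc3 and Bak1.

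**Figure D2:**
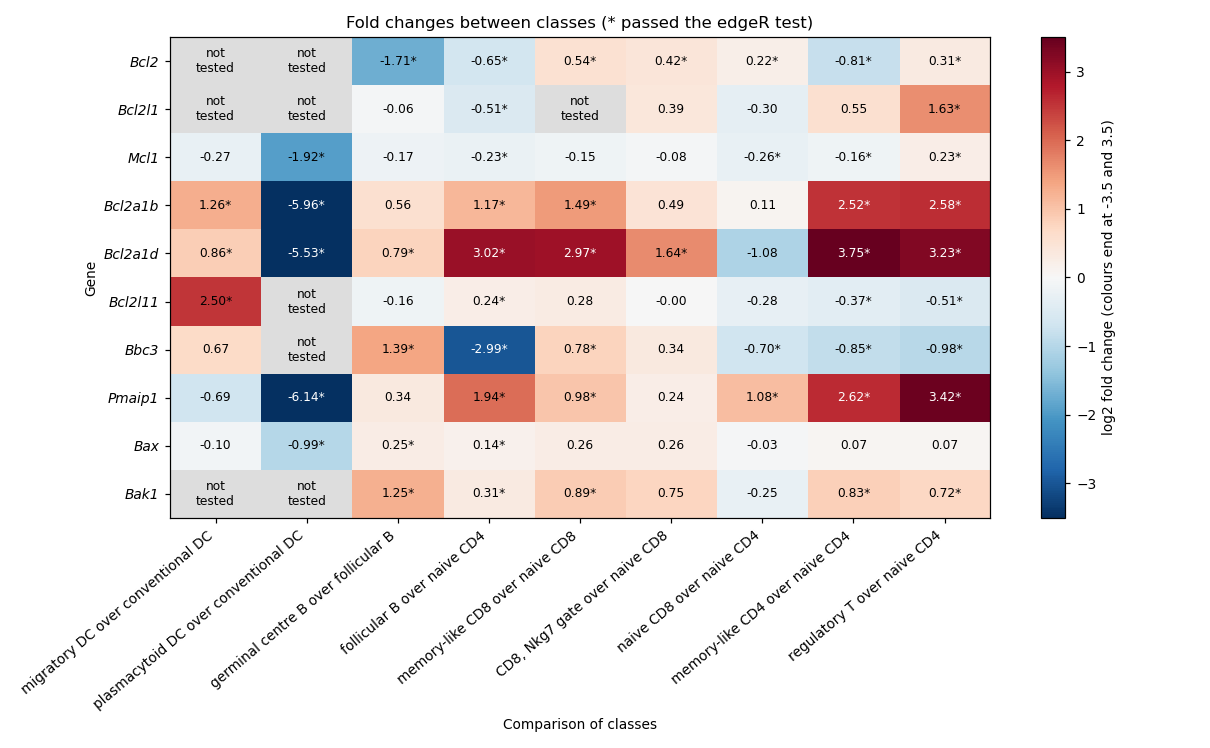
Log2 fold change of each gene (rows) between classes of the same mice (columns), coloured from blue (lower) to red (higher); a star marks genes that passed the edgeR test and grey cells were left out by its low-count filter. Some starred genes passed the filter only through the class where they were high, which partly set their direction. These were Bcl2a1b, Bcl2a1d and Pmaip1 in plasmacytoid DC, Bcl2l11 in migratory DC and Bcl2a1d in the Nkg7 gate. In memory-like CD8 cells they were all starred genes but Bcl2. Bcl2 is blue in germinal centre B (-1.71) and memory-like CD4 cells (-0.81) and red in regulatory T (0.31) and both CD8 comparisons, and Pmaip1 is red in regulatory T cells (3.42).

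Other genes of the death pathway were counted beside the members. In memory-like CD4 cells 8 of 36 tested genes of a list of 46 rose (13.1% of all genes) and 1 fell (10.7%), with a median of 0.07 on the log2 scale. In regulatory T cells 12 rose (23.6% of all genes) and 5 fell (21.6%), with a median of 0.10. The death receptor gene Fas rose by 0.46 in memory-like CD4 cells (33.8 against 22.7 CPM in naive CD4 cells) and by 1.03 in regulatory T cells (52.8 against 22.7 CPM). Vdac1, a channel of the outer mitochondrial membrane, rose by 0.41 in memory-like CD4 cells, and Birc5, which serves cell division, by 3.86 in regulatory T cells. The falls of Cflar, Trp53 and Vdac2 in regulatory T cells, each under 0.2 in size, changed sign with library totals. Casp8 fell by 0.29 in memory-like CD4 cells with TMM but did not pass with totals. In germinal centre B cells 13 of 37 rose and 7 fell, where 46.5% of all genes passed (23.7% higher, 22.8% lower): Birc5 rose by 5.80 (206 against 3.31 CPM) and Fas by 3.46, while Birc3, an NF-kB target, fell by 1.38 (57.5 against 138 CPM in follicular B cells) and Cflar by 0.63. In follicular B against naive CD4 cells 15 of 38 rose, among them Birc3 by 1.86, and 14 fell, among them Fas by 1.59 and Casp8 by 0.73, where 71.8% of all genes passed. In naive CD8 against naive CD4 cells 1 of 34 rose and 2 fell (5.39% of all genes each way), Casp8 by 0.39; the Nkg7 gate had no call, and memory-like CD8 cells had 1 gene of 26 that rose (5.89% of all genes). In migratory DC 9 of 17 rose (20.8% of all genes) and 2 fell (16.7%): Fas, Birc2 and Cflar rose by 6.60, 3.47 and 2.70, while Xiap and Cycs fell by 1.93 and 1.62; in plasmacytoid DC 0 of 20 rose (17.3% of all genes) and 4 fell (17.7%), among them Bcl2a1a, Cycs and Htra2 by 5.55, 1.70 and 1.65, the last without a call with library totals. With totals 2 of these 20 rose, Vdac1 by 1.24 (edgeR adjusted p 0.00674) and Bnip3l by 0.85 (edgeR adjusted p 0.0290), and 3 fell, and the list median, -0.40 with TMM, was 0.09. Birc5 at 3.31 CPM in follicular B cells lay under the low-count cutoff of 3.66 CPM for the germinal centre comparison. Follicular B sums alone could not bring it past the filter, which partly set its direction. For the other genes of this list the class through which they passed was not tested. The counts of this list are therefore not read as results.

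Genes upstream of the family were counted in the same way, against the same shares of all genes. In memory-like CD4 cells 8 of 18 tested genes of a list of 20 rose and 5 fell, where 13.1% and 10.7% of all genes did, and in regulatory T cells 14 rose and 3 fell, where 23.6% and 21.6% did. Il7r, the receptor of the cytokine that maintains Bcl2 in naive T cells, fell by 0.47 in memory-like CD4 cells (357 against 456 CPM) and by 1.80 in regulatory T cells (150 against 456 CPM), where Bcl2 was higher. Il2rb rose by 2.94 and by 4.86 in these classes, Nfkb2, an NF-kB subunit, by 1.09 and by 1.49, and Il2ra by 6.27 in regulatory T cells. The highest naive CD4 sum of Il2ra was 3.27 CPM, under the low-count cutoff of 3.33 CPM for that comparison. Il2ra thus passed the filter through regulatory T cells only, which partly set its direction. Stat5b and Foxo1 fell by 0.40 and by 0.37 in memory-like CD4 cells, while the falls of Foxo1 and Il2rg in regulatory T cells, each under 0.2 in size, changed sign with library totals. In germinal centre B cells 1 of 16 rose and 12 fell (22.8% of all genes), with a median of -0.67, among them Nfkb2 by 1.16 and Rel by 0.96 (274 against 509 CPM in follicular B cells). Follicular B cells differed from naive CD4 cells in 19 of 20, 8 higher (36.3% of all genes) and 11 lower (35.6%), with Il7r at 3.65 against 456 CPM. In naive CD8 cells Il2rb rose by 2.78 while Foxo1 and Il7r fell by 0.48 and by 0.26 against naive CD4 cells; over naive CD8 cells, Il2rb rose by 0.73 in the Nkg7 gate and by 1.63 in memory-like CD8 cells. Relb and Cd40 rose by 2.56 and by 3.17 in migratory DC, and Relb fell by 2.87 in plasmacytoid DC while Il7r rose by 3.23. For the other upstream genes the class through which they passed the filter was not tested, so these counts are not read as results.

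BCL2 sequesters BIM, so the ratio of Bcl2 to Bcl2l11 UMIs within the same sum was followed as a log2 value that needs no library scaling. It averaged 2.91 ± 0.211 in the Nkg7 gate, 2.80 ± 0.267 in regulatory T cells, 2.73 ± 0.325 in memory-like CD8 cells, 2.47 ± 0.251 in naive CD8 cells and 1.99 ± 0.264 in naive CD4 cells (SD, n = 6 each). Memory-like CD4 cells had 1.54 ± 0.494 and follicular B cells 1.11 ± 0.138. Germinal centre B cells were at -0.43 ± 0.968, below 0 in 5 of 6 mice, and migratory DC at -3.00 ± 1.73. The ratio in regulatory T cells exceeded that of naive CD4 cells by 0.81 ± 0.309, in 6 of 6 mice, and that of follicular B cells was lower by 0.89 ± 0.224, in 6 of 6 mice (SD of the difference; exact two-sided sign-flip p 0.031 each, the smallest that 6 mice allow, 0.1 adjusted over 8 comparisons). The ratio in germinal centre B cells lay below follicular B cells by 1.54 and memory-like below naive CD4 cells by 0.45, in 5 of 6 mice each (exact p 0.0625, adjusted 0.1). Naive CD8 cells lay above naive CD4 cells by 0.48 (exact p 0.0625, adjusted 0.1) and the Nkg7 gate above naive CD8 cells by 0.44 (exact p 0.09375, adjusted 0.125). With 3 mice the comparisons of dendritic cells could not go below p 0.25. None of the 8 passed after adjustment.

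**Figure D3:**
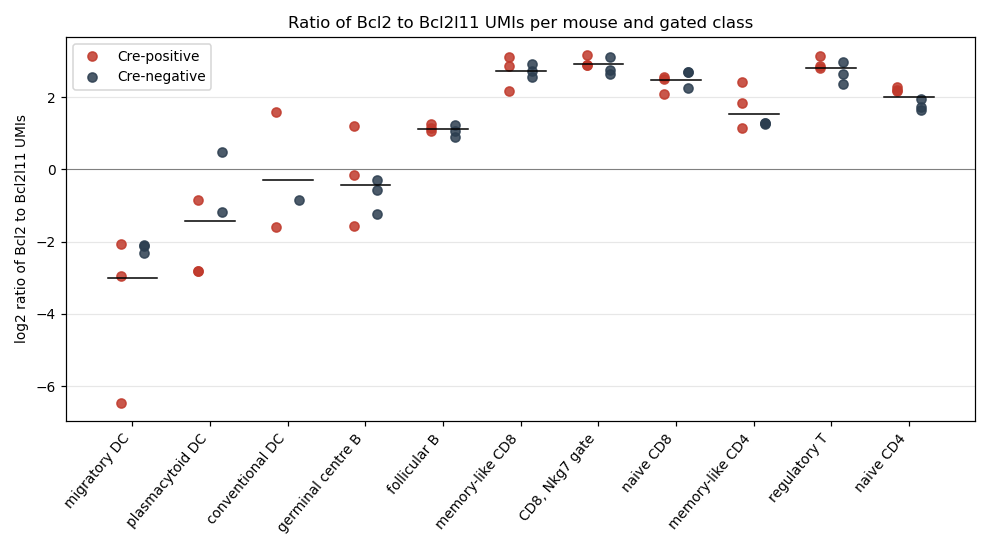
Log2 ratio of Bcl2 to Bcl2l11 UMIs, 0.5 added to each, per mouse and class (points, Cre-positive left of Cre-negative; black line, mean). CD8 and regulatory T cells lie between 2.08 and 3.18, follicular B cells near 1.11, and the dendritic cells mostly below 0. In naive CD4 cells the 3 Cre-positive mice lie above the 3 Cre-negative mice. This did not pass (exact permutation p 0.1, the smallest that 3 against 3 allows, and 0.62 adjusted over 10 classes).

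By genotype, compared between mice with no block, no member passed in any class. Of 71 tests of a member in 1 of 9 classes, which leave out the added memory-like CD8 gate, 0 passed with edgeR and 0 with DESeq2, 7 had an unadjusted p under 0.05, and in 10 the values of the genotypes did not overlap. Over all genes, 0 to 0.134% passed by class, 3.79% to 8.33% had an unadjusted p under 0.05 and 8.62% to 19.7% did not overlap. Conventional DC could not be tested.

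In naive CD4 cells, where 9 of 9880 genes passed (0.0911%) and 5.38% had an unadjusted p under 0.05, as did 1 of the 10 members, Bcl2 had 228, 268 and 243 CPM in Cre-positive 1 to 3, against 251, 214 and 180 CPM in Cre-negative 1 to 3. The groups overlapped, and the log2 fold change was 0.21 ± 0.0831 (SE; edgeR unadjusted p 0.0150, adjusted 0.743). Mcl1 had 448, 505 and 475 CPM in Cre-positive against 440, 445 and 446 CPM in Cre-negative mice, without overlap (9.53% of genes did not overlap), with a change of 0.11 and an edgeR adjusted p of 0.981. Bcl2l11 had 50.2, 58.5 and 50.2 CPM in Cre-positive against 75.2, 68.9 and 46.8 CPM in Cre-negative mice, a change of -0.25 (edgeR adjusted p 0.962), which passed at -0.42 without Cre-negative 3 (adjusted p 0.0429). In naive CD4 cells of Cre-positive mice the log2 ratio of Bcl2 to Bcl2l11 stood at 2.22 ± 0.0486, against 1.77 ± 0.155 in those of Cre-negative mice (SD, n = 3 each), without overlap. The difference of 0.44 gave an exact permutation p of 0.1, the smallest that 3 against 3 allows, and 0.62 adjusted over 10 classes. In regulatory T cells the difference was 0.27 (exact permutation p 0.3), in the Nkg7 gate 0.16 (p 0.4) and in follicular B cells, which do not descend from cells with CD4-Cre, 0.09 (p 0.5). Without cells that held an immediate early UMI the difference was 0.30 in naive CD4, 0.55 in regulatory T and 0.26 in follicular B cells and 0.27 in the Nkg7 gate. It was 0.53 in memory-like CD4 cells (p 0.4), 0.52 in germinal centre B cells (p 0.6), -0.02 in memory-like CD8 cells (p 1) and -0.18 in naive CD8 cells (p 0.5), by the same exact test. Migratory DC had -1.65 and plasmacytoid DC, with 3 against 2 mice, -1.80 (exact permutation p 0.4 each). The genotypes overlapped in all of these classes other than naive CD4 cells. Single mice moved most of these differences. In memory-like CD4 cells the difference was 0.23 without Cre-positive 2 and 0.86 without Cre-positive 1, and in germinal centre B cells it was -0.17 without Cre-positive 2 and 1.21 without Cre-positive 1. In migratory DC, where Cre-positive 2 had 0 Bcl2 UMIs and the 0.5 UMIs added to each count set its ratio, it was -0.33 without that mouse. Leaving out 1 mouse gave 0.13 to 0.43 in regulatory T cells, 0.06 to 0.30 in the Nkg7 gate, 0.0077 to 0.18 in follicular B cells, -0.33 to -0.03 in naive CD8 cells, -0.21 to 0.25 in memory-like CD8 cells and -2.64 to -0.97 in plasmacytoid DC, against 0.38 to 0.53 in naive CD4 cells.

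In the Nkg7 gate (0.0986% of 10145 genes passed, 7.28% had an unadjusted p under 0.05 and 10.9% did not overlap, with 0, 3 and 2 of the 10 members) both A1 genes were higher in each Cre-positive mouse. Bcl2a1b had 51.2, 51.1 and 48.9 CPM in Cre-positive against 47.7, 40.7 and 37.2 CPM in Cre-negative mice (log2 fold change 0.28 ± 0.0932 SE, edgeR unadjusted p 0.00640, adjusted 0.510). Bcl2a1d had 9.90, 9.70 and 9.96 CPM against 8.35, 5.18 and 6.48 CPM (0.57, edgeR adjusted p 0.434), and Pmaip1 17.1, 10.5 and 16.5 CPM against 11.1, 8.38 and 10.6 CPM (0.53, edgeR adjusted p 0.611, and 0.0365 without Cre-positive 2). In the memory-like CD8 gate, tested with edgeR alone, 0.0382% of 7847 genes passed, 7.48% had an unadjusted p under 0.05 and 11.4% did not overlap, with 0, 3 and 2 of the 10 members. Pmaip1 had 31.2, 21.5 and 25.0 CPM in Cre-positive against 16.6, 14.2 and 15.7 CPM in Cre-negative mice, without overlap (0.71 ± 0.245 SE, edgeR unadjusted p 0.00669, adjusted 0.524). Bbc3 had 40.1, 43.5 and 46.1 CPM against 68.7, 79.6 and 43.5 CPM, with overlap (-0.58, edgeR adjusted p 0.468), and Bcl2a1d 31.9, 19.98 and 34.0 CPM against 21.7, 14.2 and 15.7 CPM, with overlap (0.69, edgeR adjusted p 0.561). Bak1 had 21.1, 16.5 and 12.8 CPM in Cre-positive against 25.3, 21.2 and 21.8 CPM in Cre-negative mice, without overlap (-0.46, edgeR adjusted p 0.681). Regulatory T cells, where 0% of 8423 genes passed, 4.59% had an unadjusted p under 0.05 and 9.69% did not overlap, with 0, 1 and 2 of the 10 members, had 236, 241 and 239 CPM of Bcl2a1b in Cre-positive against 218, 181 and 208 CPM in Cre-negative mice (0.24, edgeR adjusted p 0.999), and Bax, the other gene without overlap, averaged 147 against 132 CPM (0.16, edgeR adjusted p 0.999). In memory-like CD4 cells, where 0% of 7297 genes passed, 5.04% had an unadjusted p under 0.05 and 10.3% did not overlap, with 0, 2 and 1 of the 10 members, Pmaip1 had 18.2, 25.2 and 22.9 CPM in Cre-positive against 30.7, 37.1 and 89.7 CPM in Cre-negative mice, without overlap (-1.17, edgeR adjusted p 0.910). Lyz2 varied between 2.12 and 1397 CPM over these same 6 sums, and without T cells that held a myeloid or class II UMI the change was -0.20. Without Cre-negative 3 it was -0.57, without cells that held an immediate early UMI 0.0327, and without a low-count filter -1.16 with an adjusted p of 0.00308, in a range of 0.00308 to 1.00 over 16 alternatives. Bcl2a1d, the other gene with an unadjusted p under 0.05, had 82.2, 55.9 and 79.0 CPM in Cre-positive against 75.2, 123 and 102 CPM in Cre-negative mice of this class, with overlap (-0.45, edgeR adjusted p 0.909). In follicular B cells no member had an unadjusted p under 0.05 (4.54% of 9846 genes), and only Mcl1 did not overlap (9.65% of genes), at 422, 407 and 400.1 CPM in Cre-positive against 395, 374 and 384 CPM in Cre-negative mice. In naive CD8 cells, with 6 members tested, 0 had an unadjusted p under 0.05 (6.73% of 4159 genes) and Bcl2l11 and Bax did not overlap (11.1% of genes), Bax averaging 126 CPM in Cre-positive and 96.6 CPM in Cre-negative mice.

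The smaller classes gave no member with an unadjusted p under 0.05. In germinal centre B cells (3.79% of 5044 genes) 7 members were tested and none was free of overlap (8.62% of genes). Bcl2 averaged 58.9 ± 34.8 CPM there in Cre-positive and 39.1 ± 14.7 CPM in Cre-negative mice (SD, n = 3 each), with a log2 fold change of 0.45 ± 0.483 (SE; edgeR adjusted p 0.998). In migratory DC (8.33% of 1645 genes) 5 members were tested and none was free of overlap (15.2%). Bcl2a1d averaged 739 ± 158 CPM in Cre-positive and 972 ± 128 CPM in Cre-negative mice (-0.42, edgeR adjusted p 0.599), and Bcl2a1b 1251 against 1562 CPM (-0.34, edgeR adjusted p 0.692). In plasmacytoid DC, with 3 Cre-positive and 2 Cre-negative mice (4.73% of 3721 genes), 3 members were tested. Of these Bax did not overlap (19.7% of genes), at 108, 97.3 and 120 CPM in Cre-positive 1 to 3 against 156 and 131 CPM in Cre-negative 2 and 3 (-0.43, edgeR adjusted p 0.995).

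Whether the genotype effect differed between classes was tested as an interaction with naive CD4 cells, 10 members in each of memory-like CD4, regulatory T, naive CD8 and follicular B cells. None of the 40 tests passed with edgeR or with DESeq2, where 0 to 0.0186% of all genes did, and 4 had an unadjusted p under 0.05, as had 4.77% of all genes in memory-like CD4, 4.56% in regulatory T, 5.1% in naive CD8 and 4.92% in follicular B cells. Those were Pmaip1 in memory-like CD4 cells (difference -1.24, adjusted p 0.834), Bcl2 in regulatory T cells (-0.25, adjusted p 1.00) and in follicular B cells (-0.21, adjusted p 0.820), and Bbc3 in naive CD8 cells (0.90, adjusted p 0.850), all by edgeR. The 4 comparisons share the naive CD4 sums.

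**Figure D4:**
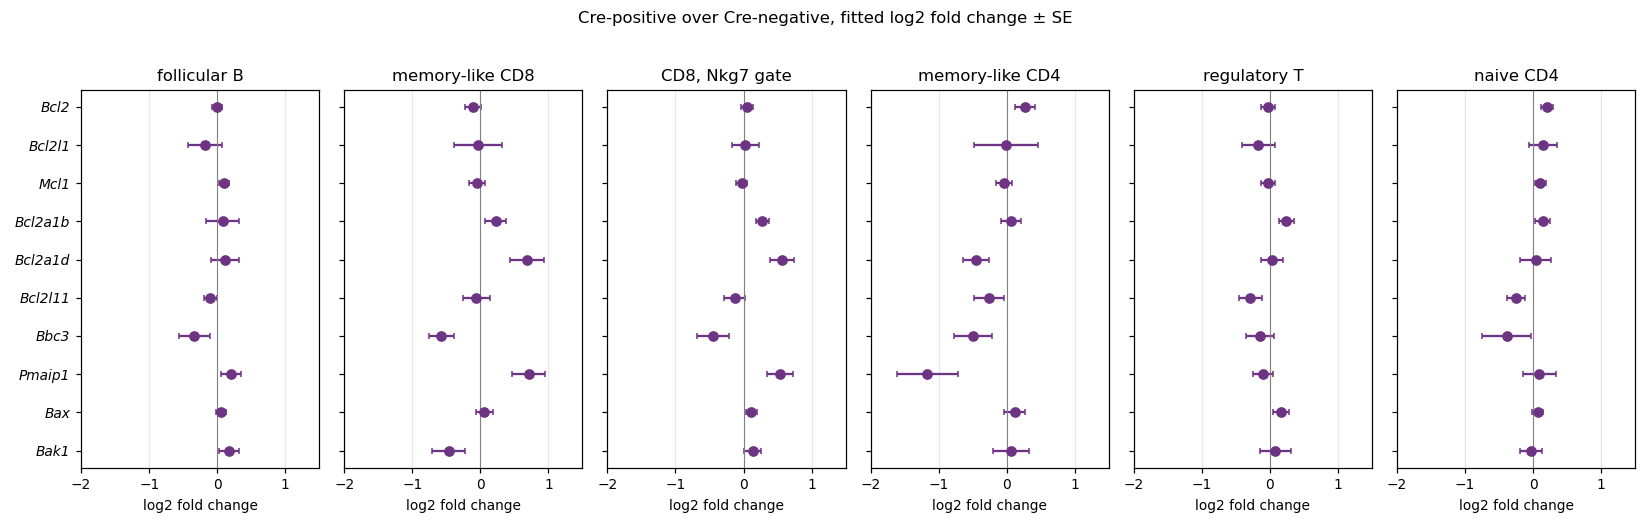
Log2 fold change ± SE of each gene, Cre-positive over Cre-negative, in the 6 classes with at least 100 cells in every mouse and all 10 genes tested. No point passed the edgeR test; Pmaip1 in memory-like CD4 cells (-1.17) and in memory-like CD8 cells (0.71) lie farthest from 0.

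Classes also differed in the share of cells with a UMI of Egr1, Nr4a1 or Fosb, immediate early genes that respond to antigen receptor signals and to handling of tissue: 61.3% of regulatory T, 57.4% of memory-like CD4, 49.7% of follicular B and 35.2% of naive CD4 cells. The share of cells with such a UMI also depends on their depth. In a comparison added after the data were seen, cells with such a UMI were set against the other cells of the same class and mouse. In naive CD4 cells, where 3.98% of genes passed, 1 of the 10 members did: Bcl2a1b averaged 44.3 CPM in cells with and 25.8 CPM in cells without the UMI, higher in 6 of 6 mice without overlap (log2 fold change 0.74 ± 0.0919 SE, edgeR adjusted p 7.95e-11). In regulatory T cells (1.43% of genes) 3 members passed: Bcl2l1 at 28.1 against 14.4 CPM (0.96, edgeR adjusted p 0.0209), Bcl2a1b at 249.6 against 169 CPM (0.55, edgeR adjusted p 0.000125) and Bcl2a1d at 70.8 against 45.8 CPM (0.64, edgeR adjusted p 0.0289). In follicular B cells (6.35% of genes) 4 passed: Pmaip1 at 24.8 against 14.0 CPM (0.78, edgeR adjusted p 6.87e-06), Bcl2a1b at 86.0 against 61.8 CPM (0.46, edgeR adjusted p 1.29e-07), Bcl2a1d at 51.8 against 42.0 CPM (0.27, edgeR adjusted p 0.0161) and Bcl2l11 at 75.2 against 63.2 CPM (0.23, edgeR adjusted p 0.0220). All 8 were higher in cells with the UMI. Through which cells each gene passed the low-count filter was not tested, so this count is not read as a result. Bcl2 and Mcl1 did not pass in any of the 3 classes; Mcl1 had 456 against 462 CPM in naive CD4, 611 against 621 CPM in regulatory T and 404 against 389 CPM in follicular B cells. With cells that held the UMI left out, regulatory T cells exceeded naive CD4 cells by 2.52 in Bcl2a1b and by 0.94 in Bcl2l1. With all cells the values were 2.58 and 1.63. The part of immediate early signals in these differences was not tested.

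**Figure D5:**
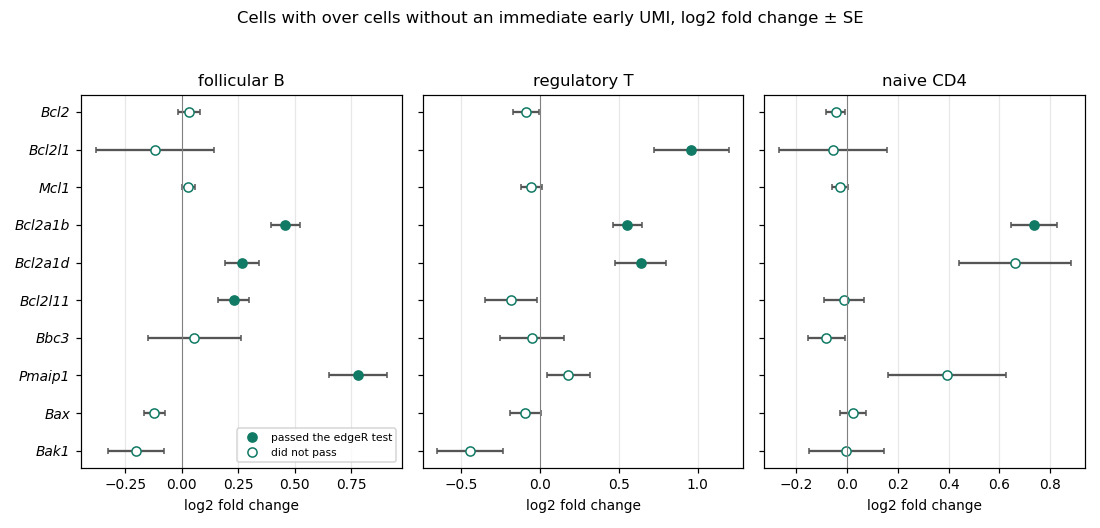
Log2 fold change ± SE of each gene between cells with and cells without an immediate early UMI of the same class and mouse; filled points passed the edgeR test. Bcl2a1b is filled in all 3 classes (0.46 in follicular B, 0.55 in regulatory T and 0.74 in naive CD4 cells), while Bcl2 and Mcl1 lie near 0.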

How the data were processed

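Single-cell RNA of pancreatic lymph nodes was measured in 3 Cre-positive and 3 Cre-negative mice, 1 library a mouse, per the labels. The deposited values are raw UMI counts per gene and barcode, which the authors made with Cell Ranger 6.1.2 against mm10, as the submitters' processing notes list them. Which annotation release they used is not given in the sources used here. No deposited file names cell types. The floxed gene and some genes of the lists are not reported here.

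Barcodes with at least 500 UMIs, at least 300 genes and at most 10% mitochondrial UMIs were kept (scanpy 1.11.5). Scrublet's own doublet threshold took 0 to 361 cells per library and did not work in each, so the highest-scoring cells were removed at 0.8% per 1000 barcodes, 4533 in all. Cells were gated by marker UMIs; 7 cells in 2 gates were left out. Levels were scaled to 1000000 UMIs. UMIs were summed per mouse and class, since cells are not replicates, and tested with edgeR 4.0.16 in R 4.3.3 (quasi-likelihood F test, TMM, robust dispersions, filterByExpr, adjustment over all genes tested). Classes were compared with the mouse as a block, because both sums come from the same animal, and genotypes without one. The labels do not say that replicate numbers pair mice. Each SE was taken as the log2 fold change divided by the root of its F statistic. The scripts were tested on simulated counts with known changes. Ratios were tested over mice with exact two-sided permutations and sign flips (scipy 1.17.1).

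All 10 members were to be described in every class; where several did not pass, their range is given in place of each value, and by genotype most genes with overlapping values and no unadjusted p under 0.05 are only counted. Of the 2 lists of other genes, up to 3 that passed per direction with the largest fold change and at least 20 CPM in either class are named. Members, lists, gates and tests were chosen with earlier results of these data known. Alternatives were a 5% mitochondrial limit, cells of at least 2000 UMIs, doublets kept, gates raised by 1 UMI, cells with an immediate early UMI left out, T cells with myeloid or class II UMIs left out, DESeq2 1.42.0, no low-count filter, library totals for TMM, each mouse left out, and the block. Gene positions came from GENCODE M21 by Ensembl identifier.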

Additional observations from a re-analysis of the deposited data

Results flagged for a closer look

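The level of a gene in 1 mouse stood apart from the other mice of its class in 7 of 90 groups of 5 or 6 mice tested by the gap to the nearest other mouse over the whole range. Chance flags about 1 in 20 such groups, and all 7 were the highest mouse. In naive CD4 cells Cre-positive 1 had 40.7 CPM of Bcl2a1b, with the other mice at 29.4 to 33.1 CPM, and 7.44 CPM of Pmaip1 from 32 UMIs, with the others at 4.22 to 5.37 CPM. In memory-like CD4 cells Cre-negative 3 had 89.7 CPM of Pmaip1, with the others at 18.2 to 37.1 CPM. In germinal centre B cells Cre-positive 3 had 81.0 CPM of Pmaip1 from 39 UMIs, with the others at 11.4 to 26.1 CPM, and Cre-negative 1 had 15.8 CPM of Bcl2l1 from 6 UMIs, with the others at 1.74 to 5.80 CPM. In plasmacytoid DC Cre-negative 2 had 32.6 CPM of Bcl2a1b from 10 UMIs, with the others at 0 to 3.53 CPM, and 39.1 CPM of Bcl2a1d from 12 UMIs, with the others at 0 to 5.24 CPM. What set these mice apart was not tested.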

How the results depend on the processing

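Of 59 single gene results (each call between classes, and each genotype value with an unadjusted p under 0.05 in the 9 classes), 35 kept their direction and their side of the threshold under every alternative run for them. Both numbers include calls that passed the low-count filter only through the class where they were high. The filter partly set the direction of such calls, so their steadiness is not read as a result. Over all alternatives of these 59, 785 values stayed, 91 lost a call, 2 gained one and 1 changed sign: Pmaip1 by genotype in memory-like CD4 cells, at 0.0327 without cells that held an immediate early UMI. The causes of the changes below were not tested. Without the replicate block of the mouse, the members called were 5 in place of 8 in memory-like CD4 cells, 2 in place of 4 in naive CD8 cells and 1 in place of 2 in the Nkg7 gate. In naive CD8 cells 1 member passed with a 5% mitochondrial limit, with stricter gates or without immediate early cells, and 2 with DESeq2 or with no low-count filter. In the Nkg7 gate 1 passed without immediate early cells, without T cells with a myeloid or class II UMI, with DESeq2 (which gave Bcl2a1d no adjusted p) or with library totals, 4 with no low-count filter, and 6 once Nkg7 was left out of the gate. For that memory-like CD8 gate, 2 in place of 6 passed with a 5% limit and 3 with stricter gates, without immediate early cells, without T cells with a myeloid or class II UMI or with DESeq2. Germinal centre B cells had 3 in place of 5 with stricter gates or without immediate early cells, and migratory DC 1 in place of 3 with a 5% limit.

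Leaving out 1 mouse gave 2 to 3 members in naive CD8 cells, 1 to 3 in the Nkg7 gate, 3 to 5 in memory-like CD8 cells, 4 to 5 in germinal centre B cells, 2 to 4 in migratory DC and 4 to 5 in plasmacytoid DC. By genotype it gave 0 to 1 calls. With no low-count filter 2 members were called by genotype, Pmaip1 in memory-like CD4 cells and Bbc3 in the Nkg7 gate (-0.45, edgeR adjusted p 0.0430). Stricter gates gave 1 call of a difference in genotype effect, and the alternatives without enough cells in germinal centre B, migratory or plasmacytoid DC gave no test there. Without immediate early cells the genotype difference of the log2 ratio was 0.30 in naive CD4, 0.55 in regulatory T and 0.26 in follicular B cells. Leaving out 1 mouse gave 0.38 to 0.53 in naive CD4, 0.13 to 0.43 in regulatory T and 0.0077 to 0.18 in follicular B cells and 0.06 to 0.30 in the Nkg7 gate, and kept the ratio of plasmacytoid over conventional DC between -2.36 and 0.20. A replicate block by number gave 0 calls by genotype. In naive CD4 cells the deviations of same-numbered mice correlated at -0.134, -0.42 and 0.45, and the highest value, 0.653, was that of Cre-positive 2 and Cre-negative 1. With 3 mice per genotype these values cannot decide whether the numbers pair mice, and the labels do not say so.

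Depth limits the low genes: Bcl2 rested on 4 to 11 UMIs per class in dendritic cells and Bcl2l1 on 13 UMIs in naive CD8 cells, where it was left out of the test between genotypes.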
